A study of Mus musculus with 6 samples.

Results

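The ends of the mouse autosomes were examined for open chromatin in cultured dermal fibroblasts, which make the collagen matrix of the skin. A peak belonged to the centromere-proximal end if its summit lay between 3 and 8 Mb of chromosomes 1 to 19, and to the distal end if its summit lay within 5 Mb of the last peak end of the chromosome over both lists. These 38 ends held 9392 of the 106132 peaks called in wildtype (WT) cells and 8925 of the 98072 called in cells lacking Lap2alpha (KO). Proximal ends held 4087 WT and 3752 KO peaks, and distal ends 5305 WT and 5173 KO peaks. The remaining 92783 WT and 86187 KO peaks of the same chromosomes, here the rest, served for comparison.

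The assay was ATAC-seq: the transposase Tn5 cuts open DNA and tags it for sequencing. There were 3 WT libraries and 3 Lap2alpha KO libraries, all grown in the same medium with fetal calf serum, and the 3 libraries of a genotype share 1 combined peak list. The labels do not state the allele behind the KO, the age of the animals, or whether the libraries came from separate animals or cultures. With no replicate lists, no difference between genotypes could be tested against replicate spread. Intervals below are 95% exact intervals for peak numbers, which cover counting error only and treat neighbouring peaks as independent. A peak present in 1 list alone cannot be told from a peak just below the threshold of the other list.

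Mouse autosomes carry their centromere next to one end, so each chromosome runs from a pericentromeric region to a telomere with essentially a single long arm. The assembled sequence begins at about 3 Mb, after a placeholder for satellite DNA. Centromeric satellites are packed as heterochromatin, while many distal ends are rich in genes. Lap2alpha, a splice form from the Tmpo gene without a membrane anchor, binds A-type lamins in the nuclear interior.

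The labelled cell type was checked by marker genes, counted as open where a peak overlapped the 1 kb around either end of the gene. Of 15 fibroblast genes 14 were open in both lists, among them Col1a1, Pdgfra and Twist1, and Lum in neither. Of 8 keratinocyte genes 2 were open in both lists, as were 2 of 8 leukocyte, 4 of 8 endothelial and 5 of 8 Schwann cell and melanocyte genes. Genes that define other types and had no such peak in either list included Krt5, Trp63, Ptprc, Pecam1 and Sox10.

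Gene starts at the ends at which a peak was called in 1 genotype only are shown first, because they tie the comparison to sequence. Of the RefSeq promoters at the ends (250 bases before to 50 after a start, GRCm38.p6), 18 of 1270 proximal and 24 of 1783 distal ones overlapped a WT-only peak (1.42% and 1.35%, against 1.41% of all promoters). A KO-only peak was overlapped by 7 and 6 (0.551% and 0.337%, against 0.533% of all promoters). The 4 of highest peak signal, with 1 chromosome left out, are printed 5′ to 3′ on the strand of the gene. Capitals mark matches, on either strand, to TGANTCA (the AP-1 site), GGGCGG (the GC box), CCAAT (the NF-Y box), TATAAA (the TATA box) and TTAGGG (the telomere repeat unit).
Slc25a13: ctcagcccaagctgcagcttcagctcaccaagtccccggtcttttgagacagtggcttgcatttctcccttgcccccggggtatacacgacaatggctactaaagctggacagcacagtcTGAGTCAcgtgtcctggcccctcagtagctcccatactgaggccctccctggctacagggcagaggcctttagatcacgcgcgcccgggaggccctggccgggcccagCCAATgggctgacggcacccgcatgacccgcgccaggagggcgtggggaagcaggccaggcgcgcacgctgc
Akr1c18: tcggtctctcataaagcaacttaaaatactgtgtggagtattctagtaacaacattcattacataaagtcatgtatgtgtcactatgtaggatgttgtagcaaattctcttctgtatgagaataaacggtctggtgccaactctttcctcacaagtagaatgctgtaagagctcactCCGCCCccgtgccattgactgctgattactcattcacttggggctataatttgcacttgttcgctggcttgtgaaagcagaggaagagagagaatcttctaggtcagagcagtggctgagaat
Gm32575: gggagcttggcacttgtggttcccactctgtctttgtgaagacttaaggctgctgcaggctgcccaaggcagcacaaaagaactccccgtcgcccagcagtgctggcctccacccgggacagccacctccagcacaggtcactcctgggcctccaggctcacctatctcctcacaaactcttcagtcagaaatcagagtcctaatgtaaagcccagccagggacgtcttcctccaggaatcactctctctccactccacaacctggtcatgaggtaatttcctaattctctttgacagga
Pdgfd: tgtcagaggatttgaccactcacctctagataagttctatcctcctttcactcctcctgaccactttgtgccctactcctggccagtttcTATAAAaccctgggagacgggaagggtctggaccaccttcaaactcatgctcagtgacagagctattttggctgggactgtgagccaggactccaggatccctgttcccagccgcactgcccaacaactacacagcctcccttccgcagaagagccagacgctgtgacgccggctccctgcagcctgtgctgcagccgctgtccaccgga

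The Slc25a13 promoter (chr6:6217124-6217423, minus strand), of the mitochondrial aspartate-glutamate carrier gene, lay under a KO-only peak from 6216530 to 6217438. That peak had a signal percentile of 71.0, meaning that 71.0% of KO peaks had a signal at or below its own. The window held 1 TGANTCA and 1 CCAAT match, 17 CpG dinucleotides and 65.0% G and C. The Akr1c18 promoter (chr13:4150597-4150896, minus strand), of a steroid dehydrogenase gene, held 1 GGGCGG match and lay under a WT-only peak at percentile 63.9. That of the long non-coding RNA gene Gm32575 (chr19:56703527-56703826, plus strand) held no match and lay under a WT-only peak at percentile 63.5, with a KO peak within 1 kb. The Pdgfd promoter (chr9:6168236-6168535, plus strand), of a platelet-derived growth factor gene, held 1 TATAAA match and lay under a WT-only peak at percentile 60.5. Among all 32851 promoter windows of this length, 7.81% held TGANTCA, 35.7% GGGCGG, 37.4% CCAAT, 13.6% TATAAA and 10.6% TTAGGG. The shares in promoters of proximal ends were 7.48%, 38.1%, 38.0%, 11.7% and 10.6%, and those of distal ends 6.95%, 39.1%, 36.1%, 12.4% and 10.2%. A match describes the letters only.

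Summed over chromosomes, the ends differed little from the rest in the number of KO relative to WT peaks. KO had 91.8% of the WT peak number at proximal ends, 97.5% at distal ends and 92.9% in the rest. On the log2 scale the ratio relative to the rest was -0.02 at proximal ends (interval -0.08 to 0.05) and 0.07 at distal ends (interval 0.01 to 0.13). The median over the 19 chromosomes was -0.01 at proximal and 0.01 at distal ends. Proximal ends lay below the rest of their chromosome on 10 chromosomes and above it on 9, and distal ends below on 8 and above on 11.

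**Figure D1:**
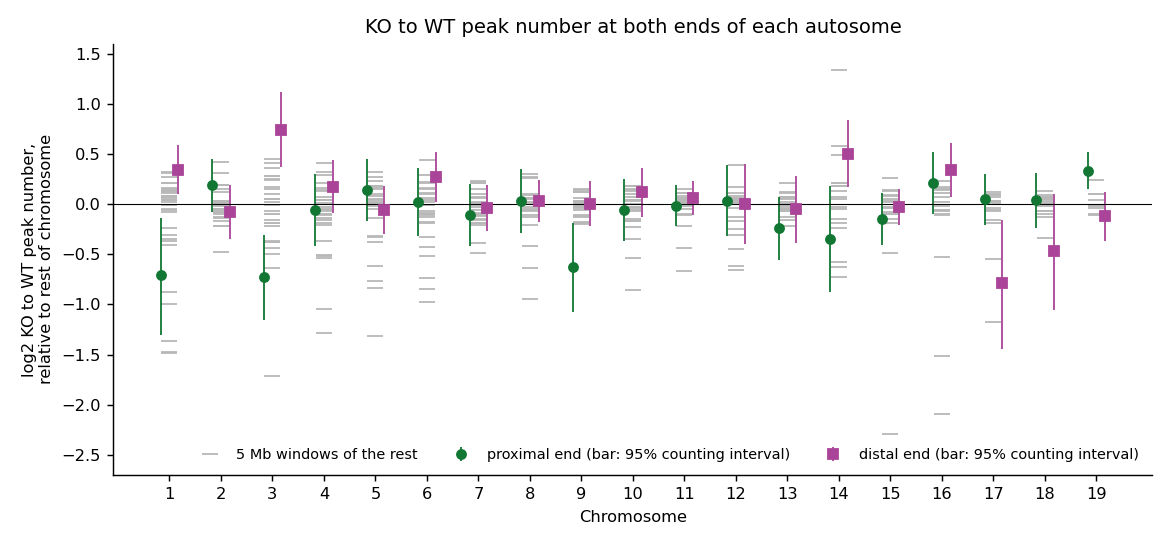
The log2 ratio of KO to WT peak number at each proximal end (circles) and distal end (squares), relative to the rest of the same chromosome, with 95% counting intervals as bars and the 5 Mb windows of the rest as grey dashes. Proximal ends of chromosomes 1, 3 and 9 and the distal end of chromosome 17 lie lowest among the ends, at -0.63 to -0.79, and the distal ends of chromosomes 3 and 14 highest, at 0.74 and 0.50.

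Single ends departed from their chromosome in both directions. A log2 difference of 0.32 from the rest of the chromosome was used as the mark. Of 424 windows of 5 Mb in the rest, 13.7% were lower by at least this much and 2.83% were higher. At proximal ends 4 of 19 (21.1%) were lower and 1 (5.26%) was higher. At distal ends 2 (10.5%) were lower and 4 (21.1%) were higher. The 3 lowest were the distal end of chromosome 17 and the proximal ends of chromosomes 3 and 1, and the 3 highest were the distal ends of chromosomes 3, 14 and 1. Both ends of a chromosome fell on opposite sides of 0 on 12 of 19 chromosomes.

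The distal end of chromosome 17 held 63 WT and 33 KO peaks, a log2 ratio relative to the rest of -0.79 (interval -1.44 to -0.15). Of the 16 windows of the rest of chromosome 17, 1 was lower than this end, at -1.18. All 33 KO peaks of the end had a WT partner, while 32 of the 63 WT peaks had none. This end is gene-poor, with 4 protein-coding genes. Adcyap1, the gene of a neuropeptide, had 3 WT-only peaks assigned, as did Mettl4, a methyltransferase gene, and neither had a KO-only peak. The 5 Mb next to this end held 211 WT and 206 KO peaks (log2 0.11), and with windows of 10 Mb the value at this end was -0.05.

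The proximal end of chromosome 3 held 134 WT and 77 KO peaks (log2 -0.73, interval -1.16 to -0.31), with 65 WT-only and 2 KO-only peaks. Of the 28 windows of the rest of chromosome 3, 1 was lower than this end, at -1.71. The end carries 7 protein-coding genes, of which 6 had an excess of WT-only and 0 an excess of KO-only peaks. Over all 21883 genes these numbers were 6686 and 3498. Because the end was picked by its peak numbers, its gene count is not independent of them. By Mb the gap was widest in the last 3 bins, with 49 WT and 34 KO, 27 and 9, and 43 and 26 peaks. The gene with the most WT-only peaks assigned was Zfhx4, a homeobox zinc-finger gene from 5218218 to 5415861. Within 100 kb of this gene or inside it lay 29 WT and 23 KO peaks, with 10 WT-only and 0 KO-only, although its gene end was open in both lists. Pex2, a peroxisome assembly gene, was open in the WT list alone, at percentile 34.6.

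At the proximal end of chromosome 1 there were 75 WT and 40 KO peaks (log2 -0.71, interval -1.30 to -0.14), with 38 WT-only and 1 KO-only. Of the 34 windows of the rest of chromosome 1, 5 were lower than this end, the lowest at -1.48. The first Mb of the end held 7 WT and 0 KO peaks, and the second 12 and 5. Rb1cc1, an autophagy gene, and Alkal1, a receptor tyrosine kinase ligand gene, each had 7 WT-only and 0 KO-only peaks. The next 5 Mb showed a deficit as well, with 158 WT and 75 KO peaks (log2 -0.88), and measured against that window the end was higher, at 0.17.

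The proximal end of chromosome 9 held 119 WT and 71 KO peaks (log2 -0.63, interval -1.08 to -0.19), with 54 WT-only and 5 KO-only. No window of the rest of chromosome 9 was as low, their range being -0.20 to 0.15. The fourth Mb, with 33 WT and 10 KO peaks, overlaps Pdgfd, whose product activates the PDGF receptor beta of mesenchymal cells. From 6168363 to 6534284 the gene contained 20 WT and 8 KO peaks, and with 100 kb on either side 29 and 8. Of those 29 WT peaks 23 were WT-only, and 0 KO peaks were KO-only. The WT-only peaks inside the gene had a median signal percentile of 55.7, against 17.8 for all WT-only peaks of proximal ends, and reached 78.7. The strongest of them ran from 6335777 to 6336831. It was assigned to Ddi1, a protease gene that lies inside Pdgfd, whose end is 69892 bp away. Another, from 6539974 to 6540878, lay just past the end of Pdgfd at percentile 73.6. Casp1, the inflammasome protease gene, was open at a gene end in WT only, at percentile 27.8. A KO-only peak of this end, from 5353622 to 5354210, had Casp12 as its nearest gene and stood higher in its list, at percentile 65.2.

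Lower KO numbers past the mark were also found at the proximal end of chromosome 14, with 72 WT and 57 KO peaks, and the distal end of chromosome 18, with 60 and 48. Their intervals, -0.87 to 0.18 and -1.05 to 0.11, included 0. Relative to the next 5 Mb the proximal end of chromosome 14 was higher, at 0.28.

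**Figure D2:**
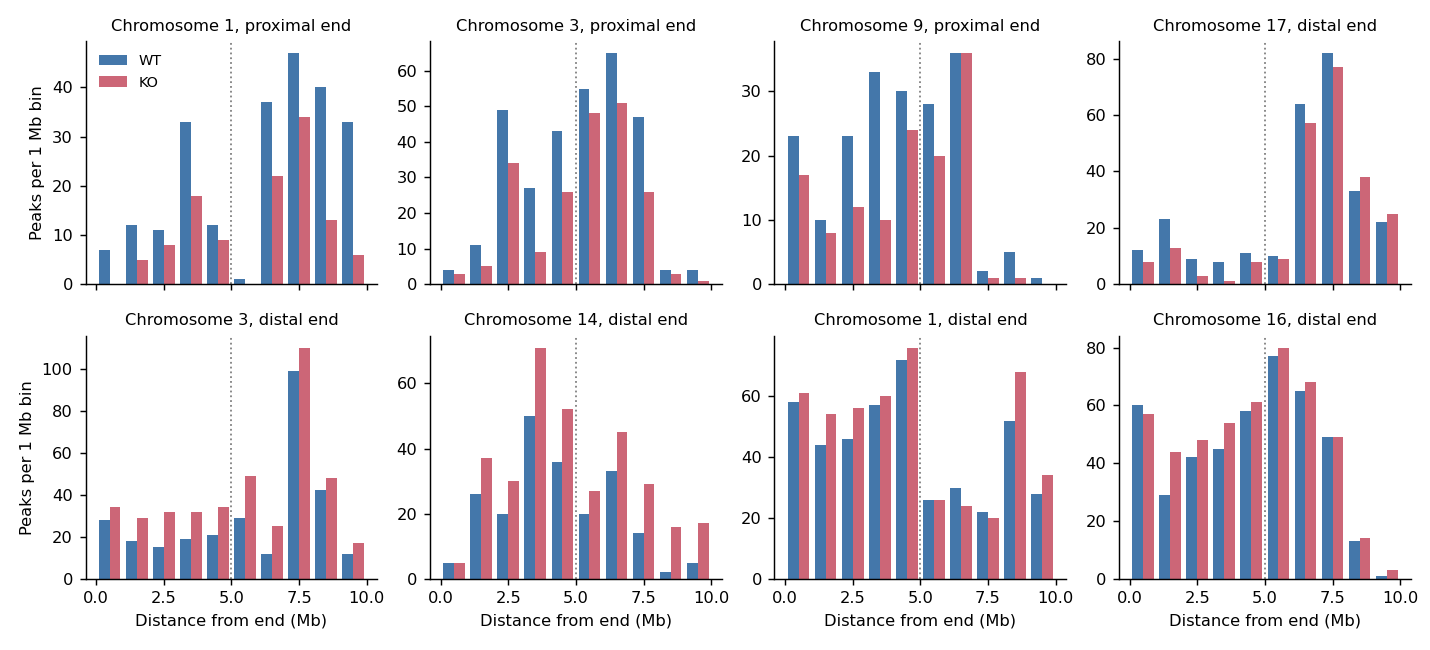
Peaks per 1 Mb bin over the first 10 Mb at 8 ends, with WT and KO bars and the 5 Mb limit of the end as a dotted line. The upper row shows the proximal ends of chromosomes 1, 3 and 9 and the distal end of chromosome 17, with fewer KO peaks (40, 77, 71 and 33 within 5 Mb against 75, 134, 119 and 63 WT peaks), and the lower row shows 4 distal ends with more KO peaks.

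KO peaks outnumbered WT peaks at several distal ends. That of chromosome 3 held 161 KO and 101 WT peaks (log2 0.74, interval 0.37 to 1.12), with 8 WT-only and 68 KO-only, and lay above all 28 windows of the rest, which reached 0.46. Against the next 5 Mb, with 194 WT and 249 KO peaks, this end was at 0.31. Each of its 5 bins of 1 Mb had more KO peaks. Of its 13 genes 9 had an excess of KO-only and 0 an excess of WT-only peaks, where 3498 and 6686 of all 21883 genes did. This gene count too is not independent of the peak numbers by which the end was picked. Lrrc7, a gene for a postsynaptic scaffold protein, and Negr1, which encodes a neuronal adhesion molecule, had 7 KO-only and 1 WT-only peaks each. Cth, the cystathionine gamma-lyase gene of cysteine synthesis, had 5 and 0.

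The distal end of chromosome 14 held 137 WT and 195 KO peaks (log2 0.50, interval 0.17 to 0.84), with 6 WT-only and 76 KO-only. Of its 23 genes 18 had more KO-only peaks and 0 more WT-only peaks. Over all 21883 genes these numbers were 3498 and 6686. The end was picked by its peak numbers, so its gene count is not independent of them. Mbnl2, a splicing regulator gene from 120275652 to 120431698, had 12 KO-only and 1 WT-only peaks, the strongest KO-only peak lying inside it from 120344618 to 120345550 at percentile 76.5. Farp1 and Dock9, both genes for guanine nucleotide exchange factors of small GTPases, had 8 and 0, and 7 and 1. At Farp1 the gene-end peak was at percentile 37.0 in WT and 96.4 in KO, each within its own list. The WT peak ran from 121035413 to 121035731 and the far longer KO peak from 121035363 to 121037847. Signal grows with peak length, so these percentiles do not compare like stretches. In the next 5 Mb there were 74 WT and 134 KO peaks (log2 0.85), and against this window the end was at -0.35. Of the 19 windows of the rest of chromosome 14, 2 were higher than this end, reaching 1.34.

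Smaller excesses were seen at the distal ends of chromosomes 1 and 16. Chromosome 1 had 277 WT and 307 KO peaks (log2 0.34, interval 0.10 to 0.59), above all 34 windows of the rest, but at 0.026 against the next 5 Mb. Rps6kc1, a ribosomal S6 kinase family gene, had 8 KO-only and 0 WT-only peaks there, and Lamb3, a laminin chain gene, 4 and 0. Chromosome 16 had 234 and 264 (log2 0.34, interval 0.07 to 0.61), with 6 KO-only and 1 WT-only peaks at Bace2, a secretase family gene. The proximal end of chromosome 19 stood at 0.34 (interval 0.15 to 0.52), although KO had fewer peaks, 594 against 619, because the rest of the chromosome had 1922 against 2529. Its distal end, with 272 against 388, was in turn lower than all 9 windows of the rest, at -0.12. Of the 11 ends past the mark, 10 had a next window with the same sign and 5 had one that also passed it. Many ends not past the mark also shared the sign of their next window, though a smaller share of them did. Whether these shares differ beyond counting error was not tested.

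Peaks were denser at distal ends than in the rest. Distal ends held 55.8 WT and 54.5 KO peaks per Mb, against 41.9 and 38.9 in the rest, 1.33 times (interval 1.30 to 1.37) and 1.40 times (interval 1.36 to 1.44) as many. Distal ends were denser than the rest on 13 of 19 chromosomes in both lists. Proximal ends held 43.0 and 39.5 per Mb, 1.03 times (interval 0.99 to 1.06) and 1.01 times (interval 0.98 to 1.05) the density of the rest. Their range was wide, from 14.4 WT peaks per Mb on chromosome 14 to 123.8 on chromosome 19, and without chromosome 19 they were at 0.92 times the density of the rest in WT and 0.90 in KO. Protein-coding genes numbered 9.14 per Mb at proximal and 11.7 at distal ends, against 8.40 in the rest. Chromosome 19 gave 183 of the 868 proximal genes, and without it proximal ends had 7.61 genes per Mb. Gene density was lower than in the rest at 14 of 19 proximal and 10 of 19 distal ends. By summit, 13.9% of WT and 14.5% of KO peaks of proximal ends lay within 1 kb of a gene end, as did 15.2% and 14.6% at distal ends and 12.96% and 13.4% in the rest.

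**Figure D3:**
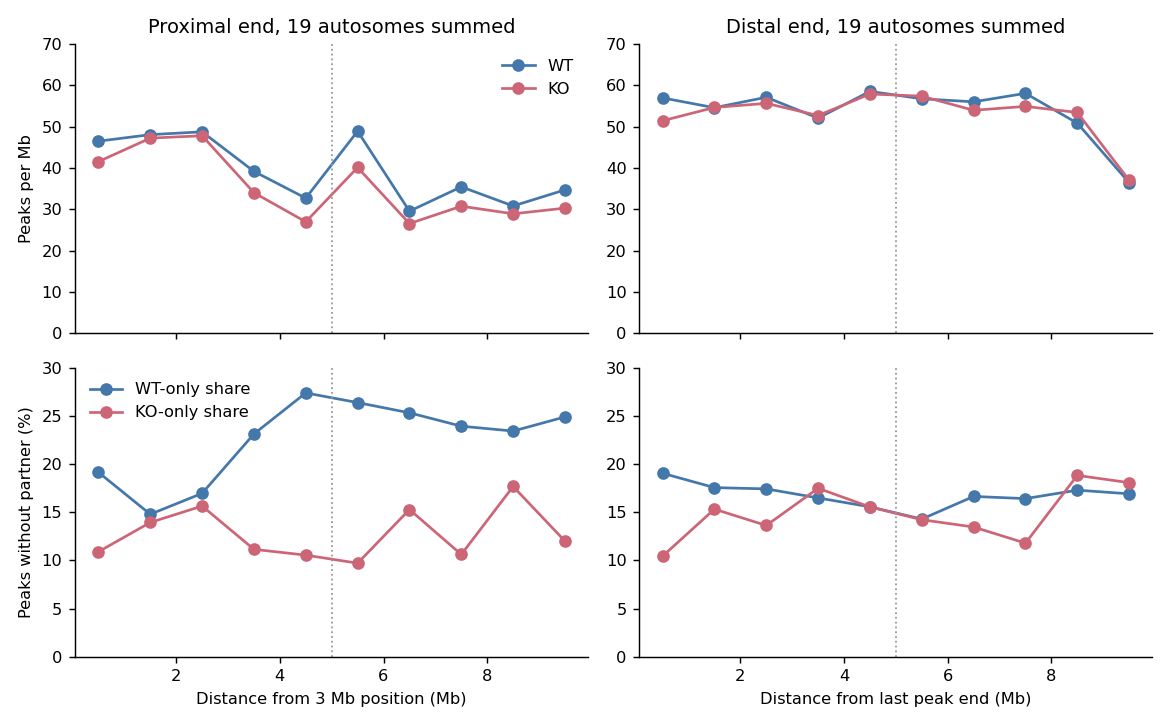
Peaks per Mb (top) and the share of peaks without a partner in the other list (bottom), by distance from the 3 Mb position or from the last peak end, summed over 19 autosomes for WT and KO. The dotted line is the limit of the end, and at the proximal end the WT-only share stands at 27.4% in the fifth Mb while the KO-only share there is 10.5%.

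Along the proximal end the KO peak number relative to WT varied with distance from the 3 Mb position. KO had 89.4% of the WT peaks in the first Mb, 98.2% in the second and 98.1% in the third, 86.8% in the fourth and 82.4% in the fifth. Just outside, in the Mb after 8 Mb, it was 82.0%. At the distal end it was 90.3% in the last Mb and 97.4% to 101.2% in the other 4.

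Sharing between the lists was close to that of all peaks. In the whole lists 20.4% of WT peaks were WT-only and 13.4% of KO peaks were KO-only. At proximal ends 80.4% of WT peaks (interval 79.1 to 81.6) and 87.2% of KO peaks (interval 86.1 to 88.3) were shared, and at distal ends 82.8% (interval 81.7 to 83.8) and 85.5% (interval 84.5 to 86.4). The rest had 79.9% and 86.5%. The range over single ends was much wider. WT sharing ran from 49.2% at the distal end of chromosome 17 and 49.3% at the proximal end of chromosome 1 to 95.6% at the distal end of chromosome 14. KO sharing was lowest at the distal end of chromosome 3, with 57.8%, and 100.0% at that of chromosome 17.

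**Figure D4:**
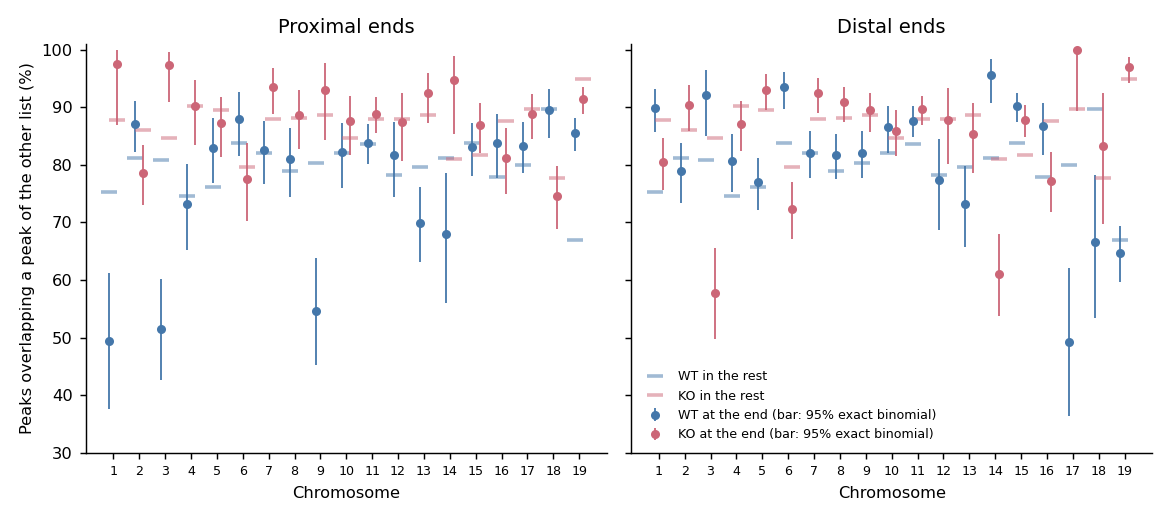
Share of peaks with an overlap of 1 bp or more in the other list at the proximal and distal end of each autosome (points, with 95% exact binomial intervals) and in the rest of the chromosome (dashes), for WT and KO. WT sharing drops to about 50% at the proximal ends of chromosomes 1 (49.3%), 3 (51.5%) and 9 (54.6%), and KO sharing drops at the distal ends of chromosomes 3 (57.8%) and 14 (61.0%).

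Peak widths at the ends were near those of the rest, except for a few very broad regions. Median widths were 469 bp in WT and 505 bp in KO at proximal ends, 467 and 487 bp at distal ends, and 441 and 469 bp in the rest. By chromosome the signs were mixed: WT peaks were wider than the rest at 10 proximal and 8 distal ends. Peaks with exactly 1 partner differed between genotypes by a median of -2 bp (KO minus WT) at both kinds of end, over 2930 proximal and 3925 distal pairs, and by -5 bp in the rest. Their summits lay within 50 bp of each other in 79.1% of proximal, 79.4% of distal and 79.6% of other pairs. Genotype-only peaks were narrow, with medians of 247 bp (WT-only) and 236 bp (KO-only) at proximal and 225 and 246 bp at distal ends, against 563 to 576 bp for shared peaks.

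**Figure D5:**
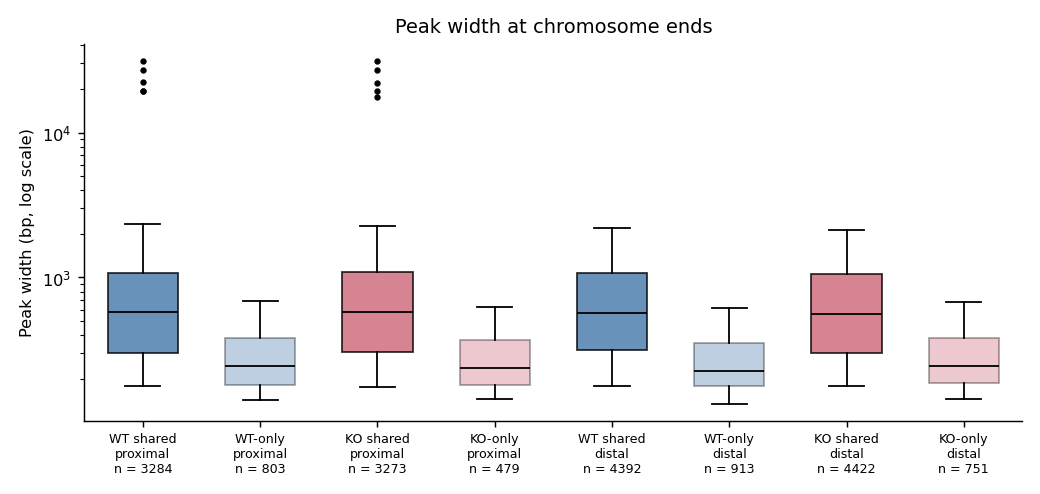
Peak width on a log scale for shared and genotype-only peaks at proximal and distal ends (box: quartiles and median, whiskers: 5th to 95th percentile, dots: peaks over 10 kb). Genotype-only peaks are narrower in each group, and all peaks over 10 kb are shared peaks of proximal ends.

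Every peak over 10 kb in either list, 5 in WT and 5 in KO, lay at a proximal end, and none lay at a distal end or in the rest. Among the 10 peaks of highest signal, 6 in each list were at proximal ends, which held 3.85% of WT and 3.83% of KO peaks. On chromosome 9, 4 peaks in each list ran from 2999951, next to the start of the assembled sequence, to 3038346 in WT and 3038353 in KO. These peaks covered 98.2% and 98.7% of that span. No annotated gene overlaps them. On chromosome 11, 16 WT peaks from 3100316 to 3203462 covered 80.3% of their span and 15 KO peaks from 3100191 to 3203446 covered 79.8%. This span overlaps Sfi1, a gene for a centrin-binding protein, Gm51877 and Eif4enif1, and its broadest peaks also overlap the pseudogenes Pisd-ps1, Gm11400 and Fau-ps2. The broadest was 31120 bp in WT and 31101 bp in KO. A further broad peak on chromosome 19, of 19335 bp in WT and 17500 bp in KO, spanned part of Neat1, the long non-coding RNA of paraspeckles, and reached Frmd8. All of these were shared, with like widths in both genotypes. The part of repeated sequence in these regions was not tested.

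The strongest peaks at distal ends were shared as well. Those of highest signal in WT were nearest to Tns2, a tensin of focal adhesions, Nrp1, a semaphorin and VEGF co-receptor gene, Actg1, the cytoplasmic gamma actin gene, Bloc1s1, a lysosome-biogenesis complex gene, and Atp5g2, a subunit gene of ATP synthase. Among the 5 of highest signal in KO, Itga5, the fibronectin receptor alpha chain gene, took the place of Nrp1. The KO peak at Itga5 spanned 7282 bp and overlapped 3 WT peaks, and the KO peak at Actg1 spanned 7877 bp and also overlapped 3 WT peaks.

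Few genes at the ends were open in 1 genotype alone. At proximal ends 25 of 868 protein-coding genes were open only in WT and 11 only in KO, while 522 were open in both lists and 310 in neither. At distal ends 29 of 1108 were open only in WT and 9 only in KO, while 688 were open in both and 382 in neither. WT-only openings made up 2.88% and 2.62% of genes at proximal and distal ends and KO-only openings 1.27% and 0.812%, against 2.47% and 1.31% of all genes. With peaks assigned to the nearest gene end within 100 kb, WT-only peaks outnumbered KO-only peaks at 251 genes of proximal ends and the reverse held at 125, with 312 and 192 genes at distal ends. Over all 21883 genes these numbers were 6686 and 3498.

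Among gene ends open in WT only, those with the strongest peaks at proximal ends belonged to Rbm48, Clcn4, Akr1c18 and Pdgfd. At Rbm48 and Clcn4 the call rested on the edge of a shared peak, and both lists had a peak within 1 kb of the RefSeq start. At distal ends they belonged to Plch2, Csf2ra, Ifitm10 and Isg15, where the peaks at Plch2 and Ifitm10 were shared ones and both lists had a peak at the RefSeq start of Ifitm10. Csf2ra, the GM-CSF receptor alpha gene on chromosome 19, had a WT-only peak from 61227184 to 61227553 at percentile 53.2. Isg15, an interferon-induced ubiquitin-like protein gene on chromosome 4, had one from 156200688 to 156201040 at percentile 50.5 and no KO peak assigned. Of the gene ends open in KO only, those with the strongest peaks were of Slc25a13, Fyb, Gm52363 and Ctsw at proximal ends and Ankrd13c, Prph, Faap20 and Alox5ap at distal ends. Fyb, an adaptor gene of T cells, had a KO-only peak at percentile 62.9, and Prph, a neuronal intermediate filament gene, one at 51.5. In neither list was there a peak within 1 kb of the RefSeq start of Fyb or Prph. Of the peaks assigned to Fyb 5 were WT-only and 4 KO-only. Ankrd13c and Faap20 had a peak at a RefSeq start in both lists, and the peak at Ctsw was a shared one.

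At proximal ends WT-only peaks led at Pdgfd (13 against 0), Zfhx4 (10 against 0) and Ddi1 (8 against 0). KO-only peaks led at Col1a2, the type I collagen chain gene, with 11 against 1, at Zeb1, which represses epithelial genes, with 10 against 0, at Svil, the supervillin gene, with 8 against 0, and at Rbfox1, a neuronal splicing factor gene, with 7 against 0. The large Rbfox1 gene itself, counted over its whole span, held 7 WT-only and 6 KO-only peaks. Inside Col1a2 there were 8 WT and 15 KO peaks, and the 9 KO-only peaks had a median percentile of 27.7. At distal ends the 4 leading WT-only genes were all on chromosome 19: Atrnl1 and Gfra1, the GDNF receptor gene, had 9 against 0, and Adrb1, the beta-1 adrenergic receptor gene, and Rab11fip2 8 against 0. WT peaks assigned to them numbered 22, 18, 16 and 24. On chromosome 19, 137 of 388 WT peaks of the distal end and 838 of 2529 of the rest were WT-only, against 20.4% of the whole list. Leading KO-only genes of distal ends were Mbnl2, Tmtc1 (10 against 0), Farp1 and Rps6kc1. With peaks of above-median signal alone, the WT-only excess was 5 at Pdgfd, Zfhx4 and Atrnl1, 6 at Gfra1 and Rab11fip2, 3 at Adrb1 and 9 at Ddi1. The KO-only excess was then 2 at Col1a2, 3 at Zeb1, Svil, Tmtc1 and Farp1, 0 at Rbfox1, 1 at Rps6kc1 and 10 at Mbnl2. With a stricter summit threshold the excess was 2 at Col1a2 and Zeb1, 5 at Svil and 4 at Rbfox1 and Adrb1. With lists of equal length it was 8 at Pdgfd, 6 at Tmtc1, 3 at Zeb1 and 4 at Zfhx4, Svil, Rbfox1 and Adrb1. With a reciprocal overlap of 50% it was 6 at Zfhx4 and Col1a2 and 7 at Mbnl2. The sign was reversed at none of these genes under these 4 alternatives. The genes were picked by their excess in these lists and the alternatives reuse the same peaks, so an unchanged sign is not independent support.

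The strongest genotype-only peaks farther than 1 kb from any peak of the other genotype are given by their nearest gene. At proximal ends the strongest WT-only peak lay nearest to AU018091 on chromosome 7 from 3134688 to 3135966, at percentile 81.0, and another inside Igfbp3, an IGF-binding protein gene, at 64.6. KO-only peaks lay inside Cdk6, a G1 kinase gene on chromosome 5, from 3497200 to 3498153 at percentile 79.1, and near Osmr, the oncostatin M receptor gene, at 76.1. At distal ends WT-only peaks lay near Rab11fip2 at 79.9, near Nhlrc2 at 76.7 and near Hoxc4, of the Hoxc cluster, at 71.8. KO-only peaks there lay near Plxna2, a semaphorin receptor gene, at 78.2 and inside Lrrc7 at 77.5. None of the 803 WT-only and 479 KO-only peaks of proximal ends, or of the 913 and 751 of distal ends, reached the strongest decile of its list.

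Members of 9 gene lists that lie at the ends were described by count. Over all genes 56.1% were open in both lists and 40.2% in neither, and of the peaks assigned to any gene 18.9% in WT were WT-only and 12.3% in KO were KO-only, with a median of 0 for KO-only minus WT-only peaks. Of the 43 imprinted genes found, 21 lie at the ends, among them those of the Peg10 and Sgce cluster at the proximal end of chromosome 6, the Peg3 cluster at that of chromosome 7 and the Igf2 and Kcnq1 clusters at the distal end of chromosome 7. Of all 21883 genes 868 lie at proximal and 1108 at distal ends, and the list was chosen with earlier results known. Of the 21 imprinted genes at the ends 6 were open in both lists and 15 in neither. In WT 25.9% of their peaks were WT-only (21 of 81) and in KO 14.3% were KO-only (10 of 70). Kcnq1, a potassium channel gene, had 5 WT-only and 2 KO-only peaks, Ano1, a chloride channel gene, 4 and 2, and Usp29 3 and 0. Peg10 and Sgce share an open end, at percentile 97.0 in WT and 99.6 in KO. Of the peaks at 10 matrix genes 30.9% in KO were KO-only (21 of 68) and 13.6% in WT were WT-only (8 of 59), and Col1a2 gave 11 of the KO-only peaks. Lama5, a laminin chain gene, had 5 KO-only and 1 WT-only peaks, Lamb3 4 and 0, and the median of KO-only minus WT-only peaks was 0 over this list.

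All 7 integrin and adhesion genes were open in both lists, where 56.1% of all genes were. Of the peaks assigned to them 22.4% were WT-only (13 of 58) and 6.82% KO-only (3 of 44). Itgb1, the common beta chain of integrins, had 5 WT-only and 0 KO-only peaks, and Itgb8 5 and 1. At 12 growth factor genes 34.3% of WT peaks were WT-only (24 of 70) and 7.41% of KO peaks KO-only (4 of 54). Of these Pdgfd gave 13 WT-only and Fgf10, a mesenchymal FGF gene, 6 WT-only and 1 KO-only. Of 15 transcription factor genes 7 were open in both lists, Zeb1 in KO only and 7 in neither. The strongest gene-end peak of Zeb1 in KO was only at percentile 26.5, and no RefSeq start was given to check it. Of the 21 WT peaks assigned to Zeb1, 0 were WT-only. Over the 15 genes 11.2% of WT peaks were WT-only (12 of 107) and 17.8% of KO peaks KO-only (21 of 118). Klf6 had 6 WT-only and 2 KO-only peaks, while Ets2 had 0 and 2. Of 8 chromatin regulator genes 7 were open in both lists, and 9.43% of their WT peaks were WT-only (5 of 53) and 15.5% of their KO peaks KO-only (9 of 58). Dnmt3a, a DNA methyltransferase gene, had 1 WT-only and 4 KO-only peaks. The cell cycle genes Cdk2, Cdk4, Cdk6, Ccnd1 and Birc5 were open in both lists and Cdkn1c in neither, with 6 of 54 WT peaks WT-only and 3 of 54 KO peaks KO-only. Of 30 lamina and envelope genes Banf1 and Syne1 lie at the ends, with 5 WT-only peaks of 11 and 0 KO-only peaks of 6. The telomere and centromere protein genes Rtel1, Cenpo and Cenpx were open in both lists, with 1 WT-only peak of 8 and 2 KO-only peaks of 8.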

How the data were processed

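ATAC-seq libraries of WT and Lap2alpha KO mouse dermal fibroblasts (3 each) were analysed from 1 combined peak list per genotype. Per the submitters' processing notes, Bowtie2 2.5.1, Genrich, deepTools 3.5.1 and the build GRCm38 were used. The Genrich settings, any Tn5 shift, any removal of repeat regions and the way libraries were combined are not stated in the labels. For each peak the authors deposited its positions, a score capped at 1000, a signal (an area that grows with peak length) and the −log10 of the summit p. The score and the deposited q were not used. The signal carries no scaling between lists, so it served only as a percentile within its own list.

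Peaks were shared if they overlapped by at least 1 bp. Windows of the rest with fewer than 20 WT peaks were left out. Genes were the 21883 protein-coding genes of RefSeq for GRCm38.p6, given without strand, so a gene was open if a peak overlapped the 1 kb around either end of its span. RefSeq starts and promoters were given for 17491 of them. Each peak was assigned to the nearest gene end within 100 kb. A gene lay at an end by the midpoint of its span. Depth per library is unknown. Intervals came from exact binomial limits and exact conditional odds ratios. No test between genotypes was possible.

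The members, gene lists and naming rules were chosen with earlier results of these data known. The rule named, for each kind of end and genotype, up to 6 genotype-only peaks of highest signal with a gene end within 100 kb and farther than 1 kb from peaks of the other genotype, 4 genes with a gene-end peak in 1 list, 4 genes with the largest excess, 5 shared peaks, up to 3 members per list and the 3 lowest and 3 highest ends. Not every gene so chosen is reported here. Named list members are those with the largest counts of genotype-only peaks, and genes and neighbours of single ends outside that rule were chosen after their values were seen. Alternatives covered window length, overlap, summit threshold, list length, signal, the comparison window and the weight of chromosomes. The code was tested on simulated data. Python 3.11.15, numpy 2.4.6, pandas 2.3.3, scipy 1.17.1 and matplotlib 3.10.9 were used.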

Additional observations from a re-analysis of the deposited data

How the results depend on the processing

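No paired analysis was possible because each genotype has 1 list that combines its numbered libraries, and for the same reason no library could be left out. Values are in the order WT proximal, KO proximal, WT distal, KO distal unless named. Shared shares were 68.0%, 74.1%, 68.2% and 69.9% with a reciprocal overlap of 50%, 85.8%, 86.1%, 86.0% and 83.1% with lists of equal length, and 82.9%, 88.5%, 84.0% and 87.2% in the upper 50% by signal. With a stricter summit threshold WT shares were 82.95% (proximal) and 84.1% (distal). As medians over chromosomes the shares were 82.7% (WT proximal), 88.8% (KO proximal) and 87.9% (KO distal). With 3 Mb windows they were 83.1% (WT proximal) and 86.8% (KO distal), with 10 Mb windows 78.0% (WT proximal), without chromosome 19 84.2% (WT distal) and without chromosome 14 86.4% (KO distal). Peak density relative to the rest was 1.20, 1.26, 1.08 and 1.06 against the next windows. At proximal ends it was 1.14 (WT) and 1.16 (KO) with 3 Mb windows, 0.94 and 0.91 with 10 Mb windows, 0.96 and 0.96 as medians, 0.92 and 0.90 without chromosome 19, and 1.06 and 1.06 without chromosome 9. At distal ends it was 1.29 (WT) with 10 Mb windows, 1.42 (WT) as a median, 1.26 (WT) without chromosome 15, 1.32 (KO) without chromosome 11, and 1.40 (WT) and 1.48 (KO) without chromosome 17. Width minus the rest was 75, 80.0, 74.0 and 61.0 bp in the upper 50%. At distal ends it was 48.0 bp (KO) with lists of equal length, -8.0 (WT) and -6.0 (KO) bp against the next windows, -17.0 and -27.0 bp as medians, and -6.5 bp (KO) without chromosome 11. The log2 ratio against the next windows was 0.073 at proximal and -0.028 at distal ends, and the distal median was 0.0073. Against the next windows 3 ends turned direction: chromosome 1 proximal to 0.17, chromosome 14 proximal to 0.28 and chromosome 14 distal to -0.35. Chromosome 3 distal was then at 0.31, chromosome 1 distal at 0.026, chromosome 16 distal at 0.11 and chromosome 19 proximal at 0.29, all below the mark of 0.32. The cause was not tested. Over all alternative settings of the summary values, 55 values left the counting interval of the main setting and 75 stayed within it. Depth per library is unknown, which limits every peak called in 1 list alone.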

Other observations

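Chromosome X was outside the rule for the ends. Its region from 3 to 8 Mb held 186 WT and 98 KO peaks, so KO had 52.7% of the WT number, with 95 WT-only and 7 KO-only peaks. The last 5 Mb held 208 WT and 180 KO peaks (86.5%), and the rest of the chromosome 3503 and 2627 (74.99%). The sex of the cells in each library is not in the labels. In raw peak numbers, not set against the rest of the chromosome, this percentage at proximal X was lower than at any proximal autosome end. The lowest of those was 53.3%, on chromosome 1. There the rest of the chromosome was at 87.3%, against 74.99% on X, so X was not the lower of the 2 relative to its own rest.

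Genotype-only peaks in the upper 50% of their list by signal numbered 63 in WT and 33 in KO at proximal ends, and 56 and 71 at distal ends. The strongest of them lay far from genes and outside the naming rule. At the distal end of chromosome 10 a KO-only peak lay from 126641459 to 126642615, 225607 bp from the nearest gene end, of Atp23, at percentile 89.3. At that of chromosome 2 a WT-only peak lay from 178600992 to 178602652, nearest to Cdh26, at percentile 87.6.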
